A study of Mus musculus with 23 samples.

Results

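The wounding response of the cub ear was examined here by setting the wound rim at 2 h against unwounded ear. The arrays were chosen by their titles alone, which gave 3 arrays at 2 h and 3 at 0 h, or 6 of the 23 arrays of the study. All mice were females aged 4 weeks. The cub mice were Rhbdf2cub/cub of the strain B6.Cg-Rhbdf2cub/J, and the wild-type mice were Rhbdf2+/+ of the strain C57BL/6J, also with 3 arrays at each of these times. All 23 arrays entered the fit and so its estimate of the spread, and the wild-type change at 2 h was tested as well and set against that in cub. In the 2 h groups a hole of 2 mm had been made through the pinna, and a punch of 3 mm then collected the 1-mm rim. The 0 h groups were labelled as controls, and no hole or punch size for them was used here, so wounding and the piece of tissue taken cannot be told apart. Each array was labelled a biological replicate, from 3 mice per time point by the design. The study asked how RHBDF2 and the NRF2 antioxidant pathway bear on the faster skin healing of cub mice.

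Rhbdf2 encodes iRhom2, an inactive relative of rhomboid proteases that brings the sheddase ADAM17 to the cell surface, where it releases EGFR ligands and tumour necrosis factor. A skin wound is sensed within minutes, and keratinocytes, fibroblasts and resident immune cells first switch on immediate early transcription factors that need no new protein synthesis. Their products, with NF-kB, then drive cytokines and chemokines that draw neutrophils and later monocytes into the wound edge.

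All values are log2 RMA values, the deposited probe summaries on a log2 scale, so a difference of 1 is a doubling. Differences are cub 2 h minus cub 0 h with the standard error of the limma fit. A gene was called when its Benjamini-Hochberg adjusted p over 19938 genes was under 0.05. Rhbdf2 itself was at 9.14, 8.93 and 8.93 in cub 2 h arrays, against 9.14, 9.07 and 9.11 in cub 0 h arrays. The groups overlapped (difference -0.11 ± 0.09, limma adjusted p = 0.526), and whether its probes cover the sequence altered in cub was not tested. Defining genes of the ear were present in every array: Krt14, a keratin of basal epidermis, averaged 12.68 ± 0.02 in cub 2 h and 12.69 ± 0.03 in cub 0 h ears (SD, n = 3 each). Muscle actin Acta1 averaged 12.26 ± 0.08 and the cartilage proteoglycan Acan 9.93 ± 0.22 in cub 2 h ears, against 12.39 ± 0.06 and 9.45 ± 0.11 in cub 0 h ears. The cartilage collagen Col2a1 averaged 7.52 ± 0.14 in cub 2 h and 7.59 ± 0.18 in cub 0 h ears.

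The strongest rises at 2 h were of inflammatory cytokines, monocyte chemokines, hyaluronan genes and immediate early factors. Of all genes tested, 2381 were called (11.9%), 1528 higher at 2 h (7.66%) and 853 lower (4.28%). After quantile normalization over the tested genes the split was 1406 higher and 1492 lower. The changes were lopsided in size: 122 genes rose and 5 fell by at least 2-fold, and 28 rose and 0 fell by at least 4-fold. The median difference over all genes was -0.007. The 3 arrays at 2 h did not overlap the 3 at 0 h for 2311 of the called genes, while 26.6% of all genes tested had no overlap.

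**Figure D1:**
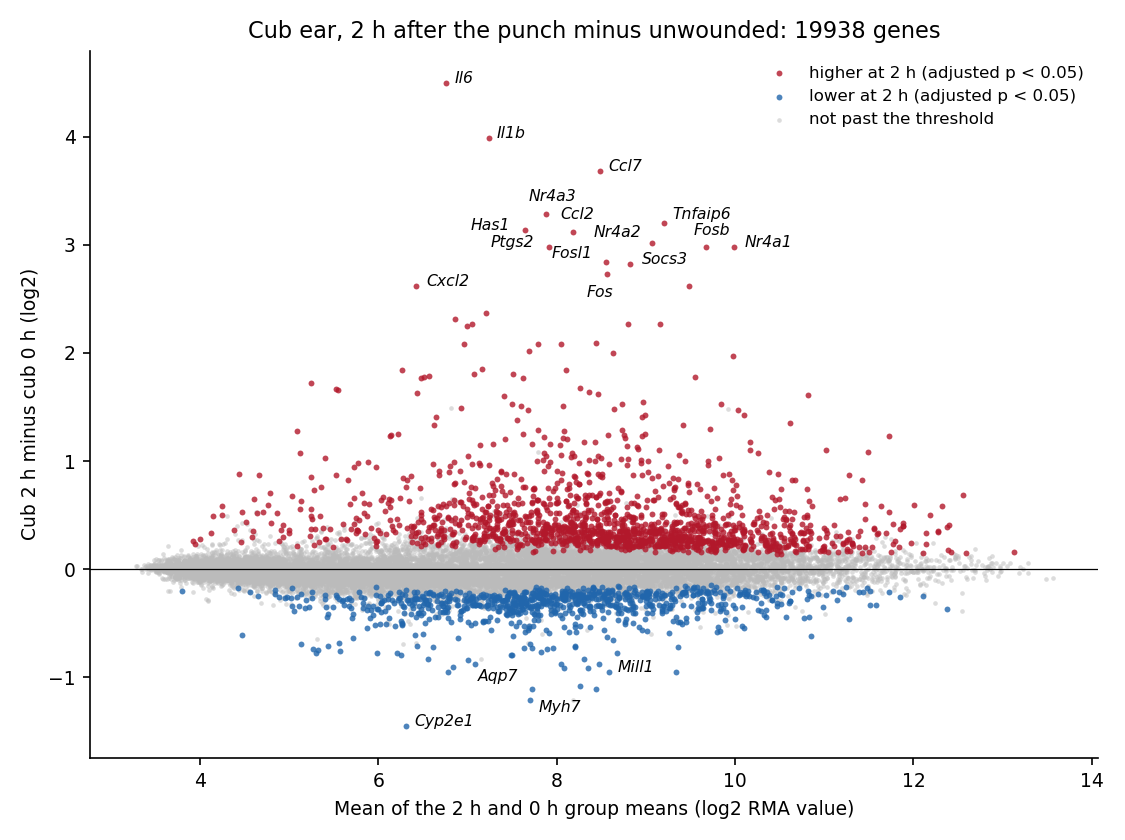
Each point is 1 of 19938 genes; the x axis is the mean of the cub 2 h and cub 0 h group means (log2 RMA value) and the y axis the difference cub 2 h minus cub 0 h (log2). Red points were called higher (1528) and blue points lower (853); rises reach 4.50 for Il6, while the largest fall, of Cyp2e1, is -1.45.

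The promoter windows below come from the 15 genes with the largest rises, a set picked by that size. RefSeq windows of the 250 bases before the start (GRCm38.p6) were at hand for 12 of these 15 genes. The motifs searched on both strands were the cAMP response element TGACGTCA, the AP-1 site TGANTCA, the core of the antioxidant response element TGACNNNGC, and the CArG box and NF-kB site by name. Capitals mark matches, and each window runs 5′ to 3′ towards the start.
Il6, chr5:30012864-30013113, plus strand: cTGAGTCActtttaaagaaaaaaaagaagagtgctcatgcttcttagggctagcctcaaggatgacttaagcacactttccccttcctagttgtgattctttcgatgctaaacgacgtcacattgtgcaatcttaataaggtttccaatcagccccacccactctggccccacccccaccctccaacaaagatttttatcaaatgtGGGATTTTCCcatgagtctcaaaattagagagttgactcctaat
Cxcl2, chr5:90903649-90903898, plus strand: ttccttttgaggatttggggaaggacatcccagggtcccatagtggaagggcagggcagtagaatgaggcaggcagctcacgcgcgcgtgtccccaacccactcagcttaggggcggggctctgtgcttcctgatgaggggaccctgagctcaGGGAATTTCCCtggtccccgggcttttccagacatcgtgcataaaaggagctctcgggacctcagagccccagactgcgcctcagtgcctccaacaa
Tnfaip6, chr2:52037863-52038112, plus strand: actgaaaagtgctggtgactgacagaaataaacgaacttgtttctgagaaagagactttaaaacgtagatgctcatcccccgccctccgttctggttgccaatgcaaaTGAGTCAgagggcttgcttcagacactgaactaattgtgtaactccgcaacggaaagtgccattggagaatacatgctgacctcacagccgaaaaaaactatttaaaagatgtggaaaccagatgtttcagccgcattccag
Has1, chr17:17855189-17855438, minus strand: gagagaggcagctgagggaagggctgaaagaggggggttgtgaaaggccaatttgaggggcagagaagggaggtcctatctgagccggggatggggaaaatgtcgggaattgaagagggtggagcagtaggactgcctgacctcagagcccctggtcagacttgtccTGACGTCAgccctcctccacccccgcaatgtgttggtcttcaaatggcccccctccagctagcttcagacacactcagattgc

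The Il6 window holds an AP-1 match 249 to 243 bases before the start and an NF-kB match 44 to 35 bases before it. Cxcl2 has an NF-kB match 97 to 88 bases before the start, and a match on the opposite strand, at 96 to 87, overlaps it. In Tnfaip6 an AP-1 match lies at 142 to 136 bases, and in Has1 a cAMP response element lies at 83 to 76 bases; both motifs match on either strand. Among the 12 windows, 4 held an NF-kB site, against 8.18% of 19116 promoters searched. An AP-1 site was found in 2 (6.03% of promoters), the antioxidant core in 2 (10.8%), the cAMP response element in 1 (2.03%) and a CArG box in 0 (1.27%), while 4 windows had no match. The windows printed above all hold a match, and the 4 with none are not printed. A match is a string of letters, not a binding site.

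Immediate early transcription factors rose almost as a group. Of 30 listed genes, 27 rose and 0 fell, with a median difference of 0.98. The 3 that did not pass were Egr3, Egr4 and Per1. Nr4a3, an orphan nuclear receptor, was at 9.67, 9.59 and 9.31 in cub 2 h arrays, against 6.34, 6.27 and 6.09 in cub 0 h arrays, 9.78-fold higher (limma adjusted p = 1.16e-11). Its relatives Nr4a2 and Nr4a1 rose by 3.02 ± 0.14 and 2.98 ± 0.29. None of the arrays of the 2 groups overlapped in these 3 genes. Fos, a subunit of AP-1, was at 9.92, 9.93 and 9.93 in cub 2 h arrays, against 8.05, 6.81 and 6.74 in cub 0 h arrays. The 2 h arrays were almost identical, while the first 0 h array was clearly higher than the other two. The difference was 2.73 ± 0.26 (limma adjusted p = 2.11e-07). The AP-1 partners Fosb and Fosl1 rose by 2.98 ± 0.34 and 2.84 ± 0.14, and the stress factor Atf3 by 2.62. Egr1, a zinc finger factor of the serum response, was at 10.82, 10.76 and 10.73 in cub 2 h arrays, against 9.57, 8.94 and 9.40 in cub 0 h arrays, 2.76-fold higher. The Jun genes moved less than the Fos genes: Junb rose by 1.25, Jun by 0.74 and Jund by 0.36.

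The same genes had other levels in the other cub groups. Fos averaged 9.35 in the 2 cub arrays at 15 min and 8.86 in the 3 at 24 h, and Nr4a1 averaged 8.94 and 9.62 at these times. Il6 averaged 4.74 at 15 min and 9.12 at 24 h. At 15 min Fos was thus already above its 0 h mean of 7.20, while Il6 was close to its 0 h mean of 4.51. These means are given as a description, without a test.

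Feedback genes of the MAPK and NF-kB pathways rose alongside. Of 21 MAPK feedback genes, 10 rose and 1 fell, with a median of 0.30. The phosphatase Dusp1, which switches off p38 and JNK, was at 12.04, 12.04 and 12.01 in cub 2 h arrays, against 11.26, 10.77 and 10.83 in cub 0 h arrays (difference 1.08 ± 0.13, limma adjusted p = 5.68e-06). Errfi1, an inhibitor of EGFR kinase, rose by 0.82 ± 0.06, Spry4 by 0.91 ± 0.12 and Phlda1 by 1.05 ± 0.12. The 1 lower gene, the ETS factor Etv4 (-0.24), was no longer called without any single cub array. Of 22 NF-kB feedback and mRNA decay genes, 15 rose and 0 fell (median 0.47). Socs3, which curbs signalling by the interleukin 6 receptor, was at 10.31, 10.23 and 10.15 in cub 2 h arrays, against 7.67, 7.19 and 7.37 in cub 0 h arrays, 7.06-fold higher. The NF-kB cofactor Bcl3 rose by 2.09 ± 0.14, the ubiquitin editor Tnfaip3 by 1.18 ± 0.12, and Zfp36, which destabilizes cytokine mRNAs, by 1.53 ± 0.09.

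Among ligands, receptors and sheddases of the EGFR family, all the genes that rose were ligands: of 15 tested, 4 rose and 1 fell, with a median of -0.02. Hbegf, heparin-binding EGF-like growth factor, was at 9.91, 9.88 and 9.99 in cub 2 h arrays, against 7.95, 7.47 and 7.56 in cub 0 h arrays, 4.81-fold higher (limma adjusted p = 1.87e-10). Epgn, which encodes epigen, was at 8.13, 8.39 and 8.10 in cub 2 h arrays, against 6.33, 7.12 and 6.38 in cub 0 h arrays, 3.02-fold higher. The groups stood apart in both ligands. Ereg (epiregulin) rose by 1.00 ± 0.21 and Nrg1 (neuregulin) by 0.33 ± 0.09, and the Nrg1 call was lost without any 1 of cub 0 h replicates 1 and 3 or cub 2 h replicates 2 and 3 (highest adjusted p = 0.0724). The receptor gene Erbb2 fell by 0.24, a call that ended without cub 0 h replicate 1 or 2 or cub 2 h replicate 2 or 3. Differences for Egfr (-0.05), Adam17 (-0.17), Adam10 (-0.07) and Rhbdf1 (-0.02) did not pass. Areg was not analysed here.

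Few interleukin genes moved, but 2 of them had the largest rises of all genes. Of 28 interleukins and other cytokines, 6 rose and 1 fell (median 0.05). Il6, a cytokine that drives the acute phase response, was at 9.21, 8.68 and 9.14 in cub 2 h arrays, against 4.43, 4.65 and 4.46 in cub 0 h arrays, 22.6-fold higher (limma adjusted p = 1.16e-11). Il1b, an alarm cytokine of myeloid cells, was at 9.07, 9.20 and 9.42 in cub 2 h arrays, against 5.23, 5.36 and 5.12 in cub 0 h arrays, 15.9-fold higher (limma adjusted p = 3.51e-10). In both genes the spread within groups was small beside the gap between them. Osm, an interleukin 6 relative, rose by 0.94 ± 0.20, and Il24, Il10 and Csf1 by 0.56, 0.52 and 0.35. The epidermal alarmin Il33 fell by 0.45. Tnf differed by 0.11, Il1a by 0.18, Csf3 by 0.10 and Tslp by -0.20, none of which passed.

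Chemokines were higher, with 11 of 28 called and 0 lower (median 0.28). Ccl7 and Ccl2 attract monocytes through CCR2. Ccl7 was at 10.28, 10.52 and 10.20 in cub 2 h arrays, against 6.52, 6.97 and 6.47 in cub 0 h arrays, 12.8-fold higher (limma adjusted p = 4.90e-13). Ccl2 was at 9.65, 9.89 and 9.68 in cub 2 h arrays, against 6.43, 6.75 and 6.67 in cub 0 h arrays, 8.71-fold higher. The neutrophil attractant Cxcl2 was at 8.01, 7.19 and 8.01 in cub 2 h arrays, against 5.10, 5.15 and 5.09 in cub 0 h arrays. Its second 2 h array was lower than the other two yet well above all 0 h arrays (difference 2.62 ± 0.25, limma adjusted p = 2.1e-07). Ccl3 rose by 2.31 ± 0.21, Ccl20 by 1.81 and Cxcl1 by 1.77. Differences for Cxcl5 (0.19), Cxcl12 (0.02) and Ccl5 (0.11) did not pass. Of 22 cytokine and chemokine receptors, 10 rose and 0 fell (median 0.24), among them Tnfrsf12a, the TWEAK receptor (1.02 ± 0.11), and the shared receptor chain Csf2rb (0.97 ± 0.13).

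**Figure D2:**
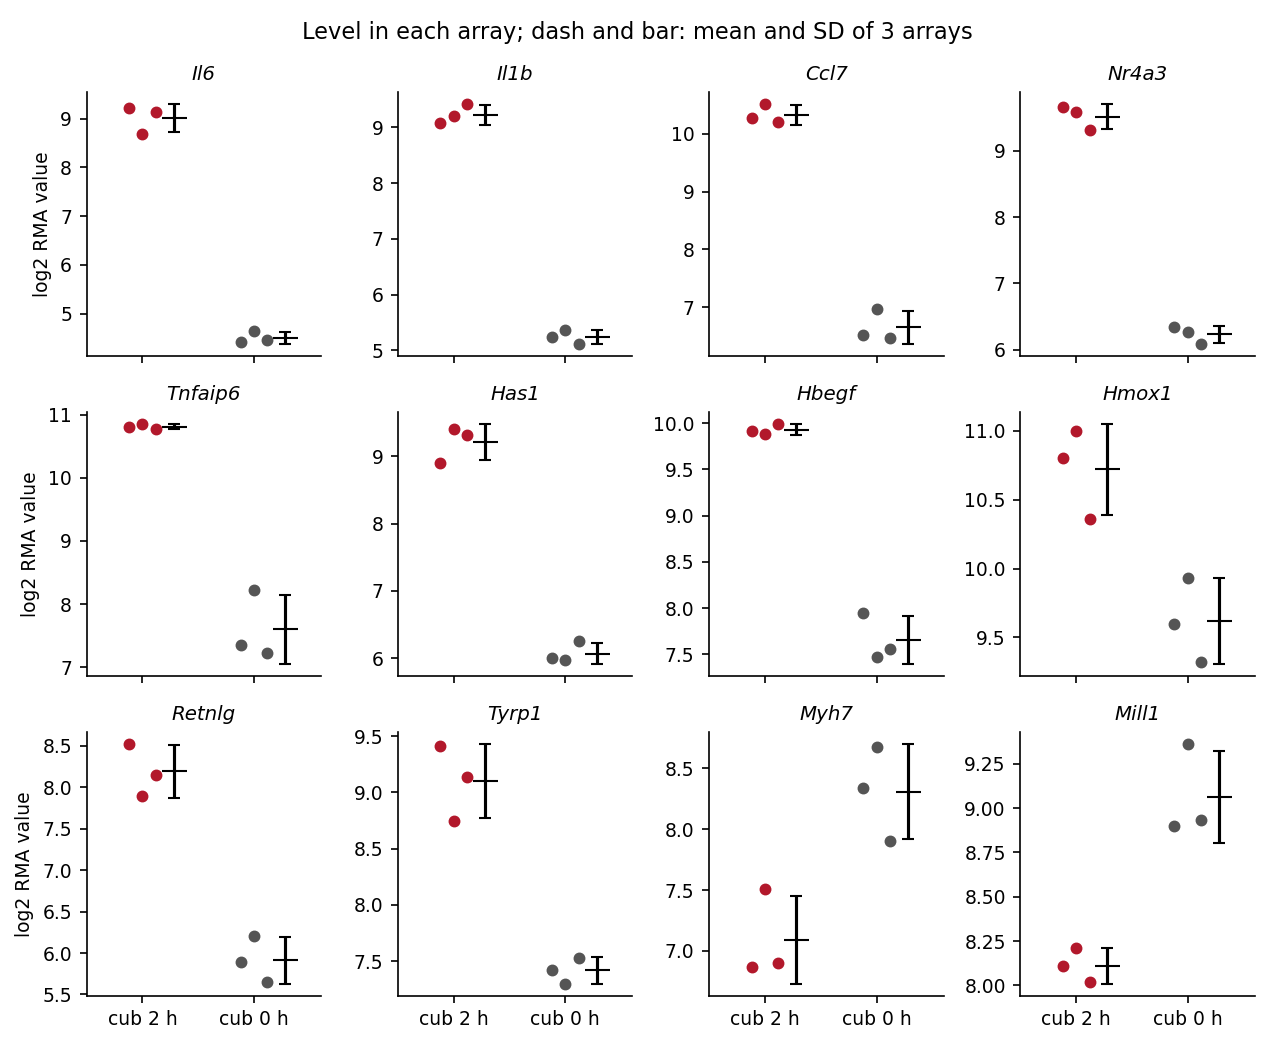
Log2 RMA values of 12 genes in each of the 3 cub 2 h arrays (red) and 3 cub 0 h arrays (grey), with the dash and bar giving mean and SD. The groups do not overlap in any of the 12, and the 2 genes that fell, Myh7 and Mill1, show smaller gaps (-1.21 and -0.95) than Il6 (4.50).

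Hyaluronan and prostaglandin genes were also higher. Of 16 genes for prostaglandins, kinins and hyaluronan, 8 rose and 0 fell (median 0.31). Tnfaip6, which crosslinks hyaluronan in inflamed matrix, was at 10.80, 10.85 and 10.77 in cub 2 h arrays, against 7.36, 8.22 and 7.23 in cub 0 h arrays, 9.21-fold higher (limma adjusted p = 5.28e-10). The hyaluronan synthase Has1 was at 8.90, 9.41 and 9.32 in cub 2 h arrays, against 6.00, 5.97 and 6.25 in cub 0 h arrays, 8.79-fold higher. A second synthase, Has2, rose by 1.53 ± 0.18, while the difference for Has3 (0.33) did not pass. Ptgs2, the inducible cyclooxygenase, was at 9.31, 9.17 and 9.73 in cub 2 h arrays, against 6.54, 6.44 and 6.29 in cub 0 h arrays, 7.89-fold higher. Prostaglandin E synthase Ptges rose by 0.74 and the inducible kinin receptor Bdkrb1 by 0.91. The prostaglandin dehydrogenase Hpgd differed by -0.05 and did not pass.

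Markers of neutrophils were higher at 2 h. In whole tissue, more cells of a type and more RNA per cell cannot be told apart. Of 21 neutrophil markers, 12 rose and 0 fell, with a median of 1.21, and the mean level over the list was 6.79 to 6.95 in cub 2 h arrays and 5.80 to 5.92 in cub 0 h arrays. The alarmin S100a8 was at 8.06, 7.89 and 8.40 in cub 2 h arrays, against 5.54, 6.07 and 5.98 in cub 0 h arrays, 4.77-fold higher (limma adjusted p = 4.44e-07). Retnlg, a resistin-like gene of neutrophils, was at 8.52, 7.89 and 8.15 in cub 2 h arrays, against 5.89, 6.20 and 5.65 in cub 0 h arrays, 4.83-fold higher. These genes separated the groups completely. The receptors Cxcr2 and Csf3r rose by 1.85 ± 0.21 and 1.63 ± 0.15, and Hdc, which makes histamine, by 2.08 ± 0.16. Granule genes of immature neutrophils did not pass: Mpo differed by -0.03, Elane by -0.01, Ltf by -0.01 and Camp by -0.16.

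Other immune markers moved less. Of 19 macrophage and monocyte markers, 4 rose and 0 fell (median 0.19), or 2 without cub 0 h replicate 1. Cd14, a coreceptor for bacterial lipid, rose by 1.81 ± 0.16. The others that rose were Lyve1 (0.96 ± 0.13), C1qb (0.59 ± 0.15) and Lyz1 (0.46 ± 0.12), while Adgre1 (-0.11) and Csf1r (0.12) did not pass. The list means of the groups almost met, at 8.27 to 8.43 in cub 2 h arrays and 7.82 to 8.26 in cub 0 h arrays. Among 11 Langerhans cell and MHC class II genes, 3 rose and 1 fell (median 0.09). The activation markers Cd83 and Cd86 rose by 1.47 ± 0.12 and 0.97 ± 0.12, langerin (Cd207) by 0.66 ± 0.10, and Ciita, the master regulator of MHC class II, fell by 0.53. Of 12 mast cell markers 1 rose and 1 fell (median 0.08). Hpgds, a prostaglandin D synthase of mast cells, fell by 0.72, and the tryptase Tpsb2 (0.12) did not pass. Of 14 T cell and innate lymphoid markers 2 rose and 0 fell (median -0.07), or 1 without cub 2 h replicate 1. The 22 interferon-stimulated genes had 1 higher and 2 lower members (median -0.16), led by Irf1, a transcription factor, at 1.06 ± 0.10. Without cub 2 h replicate 2, 1 was lower. Over all genes tested, 7.66% rose and 4.28% fell, so counts of 1 or 2 say little about a list.

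Genes of the NRF2 pathway, which the study's title names, moved in part. NRF2 is the transcription factor that turns on genes for glutathione, NADPH and haem handling. Of 28 listed genes, which include Keap1 and the NRF2 gene itself, 8 rose and 0 fell, and the list median was only 0.06. The NRF2 gene is among the 8. Hmox1, which breaks down haem, was at 10.80, 11.00 and 10.36 in cub 2 h arrays, against 9.60, 9.93 and 9.32 in cub 0 h arrays, 2.15-fold higher (limma adjusted p = 2.22e-05). Slc7a11, the cystine transporter, was at 6.37, 6.36 and 6.4 in cub 2 h arrays, against 5.57, 5.22 and 5.38 in cub 0 h arrays, 1.98-fold higher. Gclc, the first enzyme of glutathione synthesis, rose by 0.51 ± 0.08, Srxn1 by 0.57 ± 0.07 and Gclm by 0.27. Nfe2l2, the gene for NRF2, was at 11.03, 11.10 and 11.00 in cub 2 h arrays, against 10.63, 10.56 and 10.51 in cub 0 h arrays, 1.39-fold higher. Members for conjugation and NADPH did not pass, with differences of 0.13 for Nqo1, 0.06 for Gstm1 and -0.15 for Me1. After quantile normalization 3 of the 28 were lower. In wild type, 5 of the 28 rose (median -0.03), and 0 of the 28 passed the test of a different change between the genotypes. Among those, Slc7a11 changed by 0.99 in cub and had a difference of 0.30 in wild type. The difference of changes was 0.69 ± 0.21 (limma adjusted p = 0.221). Its means were alike at 2 h, 6.38 in cub and 6.41 in wild type, against 5.39 and 6.11 at 0 h.

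Other stress lists gave mixed counts, beside 7.66% of all genes that rose and 4.28% that fell. Of 10 metallothioneins and zinc transporters 3 rose and 1 fell (median -0.01): Mt1, a zinc-binding protein, rose by 1.23 ± 0.08, Mt2 by 0.69 ± 0.06 and Slc39a14 by 0.88 ± 0.08. The fall of Slc39a10 (-0.26 ± 0.08) was lost without any single cub array (highest adjusted p = 0.121). Of 15 heat shock genes 8 rose and 1 fell (median 0.16), or 5, 4, 5 and 5 rose without cub 0 h replicates 1 and 3 and cub 2 h replicates 2 and 3; the lower gene, Hsf2 (-0.36), was not called without cub 0 h replicate 1. Bag3, a chaperone partner, rose by 0.56 ± 0.05. Of 21 ATF4 and unfolded protein response genes 7 rose and 1 fell (median 0.10), with the amino acid transporter Slc7a5 at 1.07 ± 0.10 and Atf4 at 0.63 ± 0.05. The endoplasmic reticulum chaperone Hspa5 differed by 0.18 and did not pass. The 1 lower gene, the chaperone Hsp90b1 (-0.24), was not called without cub 0 h replicate 1 or 2 or cub 2 h replicate 2 or 3. Of 25 hypoxia and glycolysis genes 3 rose and 0 fell (median 0.11), and between 1 and 6 rose when 1 array was left out, 1 without cub 0 h replicates 1 or 3 or cub 2 h replicates 1 or 2, and 6 without cub 0 h replicate 2.

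A subset of the genes listed for wound-edge keratinocytes had moved, and which cells of the rim carried them was not tested. Of 24 wound-edge genes 8 rose and 1 fell (median 0.23). Plaur, the urokinase receptor, was at 8.96, 8.85 and 8.67 in cub 2 h arrays, against 6.78, 6.88 and 6.58 in cub 0 h arrays, 4.23-fold higher. Itga5, the fibronectin receptor chain, rose by 1.24 ± 0.09, and Krt6a, a keratin of activated keratinocytes, by 1.01 ± 0.14. Sprr1b, a cornified envelope protein, was at 10.22, 10.35 and 10.31 in cub 2 h arrays, against 7.57, 8.64 and 7.87 in cub 0 h arrays (difference 2.27 ± 0.51, limma adjusted p = 0.00493). Krt16 (1.49) and Krt17 (-0.18) did not pass. The 1 lower gene was Lamb3 (-0.24), whose call was lost without cub 0 h replicate 2 or any of the cub 2 h arrays. Of 27 epidermal differentiation genes 1 rose and 2 fell (median 0.02), beside 7.66% and 4.28% of all genes. Krt24 rose by 0.63 ± 0.11, Ivl (involucrin) fell by 0.44 ± 0.09, and Krt1 fell by 0.37 ± 0.12. The Krt1 arrays overlapped, and its call was lost in 10 of 16 alternatives, with a highest adjusted p of 0.282.

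Skin appendages and cartilage stayed mostly below the threshold. Of 28 hair follicle genes 2 rose and 0 fell (median -0.01); without cub 0 h replicate 2 or cub 2 h replicate 2 the count was 1, and without cub 0 h replicate 3 it was 4. Of 18 sebaceous gland genes only the wax synthase Awat1 rose (0.48 ± 0.10, list median 0.06), and of 18 cartilage genes only Hapln1, which anchors proteoglycan to hyaluronan, rose (0.75 ± 0.12, list median -0.06), or 2 without cub 2 h replicate 3. Shares such as 1 of 18 lie near the 7.66% of all genes that rose.

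Fibroblast and matrix genes were higher, and so were proteases that remodel matrix. Of 24 fibroblast and matrix genes 15 rose and 0 fell (median 0.28), or 9 without cub 0 h replicate 2 and 9 without cub 2 h replicate 1. All 24 differences were positive. Ccn1, a matricellular immediate early protein, was at 11.56, 11.70 and 11.59 in cub 2 h arrays, against 10.42, 9.75 and 9.85 in cub 0 h arrays, 3.05-fold higher (limma adjusted p = 8.05e-08). The collagen crosslinking enzyme Lox averaged 10.83 ± 0.1 in cub 2 h and 9.93 ± 0.09 in cub 0 h arrays (SD, n = 3 each), 1.87-fold higher. Fibrillar collagens changed less: Col1a1 rose by 0.40, Col1a2 by 0.38 and Col3a1 by 0.38. The list mean was 10.85 to 10.95 in cub 2 h arrays and 10.53 to 10.55 in cub 0 h arrays. In wild type 3 of these genes rose and 2 fell (median 0.02), and 0 of the 24 passed the test of a different change between genotypes. Of 21 matrix protease genes 9 rose and 0 fell (median 0.29). Adamts4, which cleaves proteoglycans, was at 8.53, 8.39 and 8.25 in cub 2 h arrays, against 6.13, 5.85 and 6.07 in cub 0 h arrays, 5.18-fold higher (limma adjusted p = 4.9e-13). Timp1, a metalloproteinase inhibitor, rose by 1.41 ± 0.14 and Mmp19 by 1.25 ± 0.15, while Mmp13 (0.07) and Plau (0.01) did not pass.

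Growth, vessel and clock lists had both directions, beside 7.66% of all genes that rose and 4.28% that fell. Of 29 TGF-beta, BMP and Wnt genes 5 rose and 3 fell (median 0.06), or 3 rose without cub 0 h replicate 3; the BMP target Id1 rose by 0.65 ± 0.10 and Wnt3 fell by 0.41 ± 0.10. Of 20 endothelial genes 3 rose and 2 fell (median 0.06). Sele, the selectin on which leukocytes roll, was at 7.91, 8.17 and 8.65 in cub 2 h arrays, against 6.8, 6.86 and 6.92 in cub 0 h arrays, 2.61-fold higher. The apelin receptor Aplnr was at 6.31, 6.50 and 6.34 in cub 2 h arrays, against 7.29, 7.23 and 7.36 in cub 0 h arrays (difference -0.91 ± 0.09, limma adjusted p = 1.96e-07), whereas its ligand Apln rose by 0.61 ± 0.14. The other lower gene, the VEGF receptor Kdr (-0.29), was no longer called without cub 0 h replicate 2 or cub 2 h replicates 1 or 2. Of 15 genes of cell cycle entry and arrest 8 rose and 0 fell (median 0.36), with Myc at 1.1 ± 0.09, Gadd45b at 0.79 ± 0.09 and Plk2 at 0.69 ± 0.09. Of 25 cell division genes 1 rose, the S phase cyclin Ccne1 (0.26 ± 0.06), and 0 fell (median 0.01). That call was lost without cub 2 h replicate 1, and 2 rose without cub 2 h replicate 2. Of 17 circadian clock genes 6 rose and 1 fell (median 0.11), led by the repressor Nfil3 (1.84 ± 0.12) and Bhlhe40 (1.00 ± 0.08); 2 fell without cub 2 h replicate 1 or 2.

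**Figure D3:**
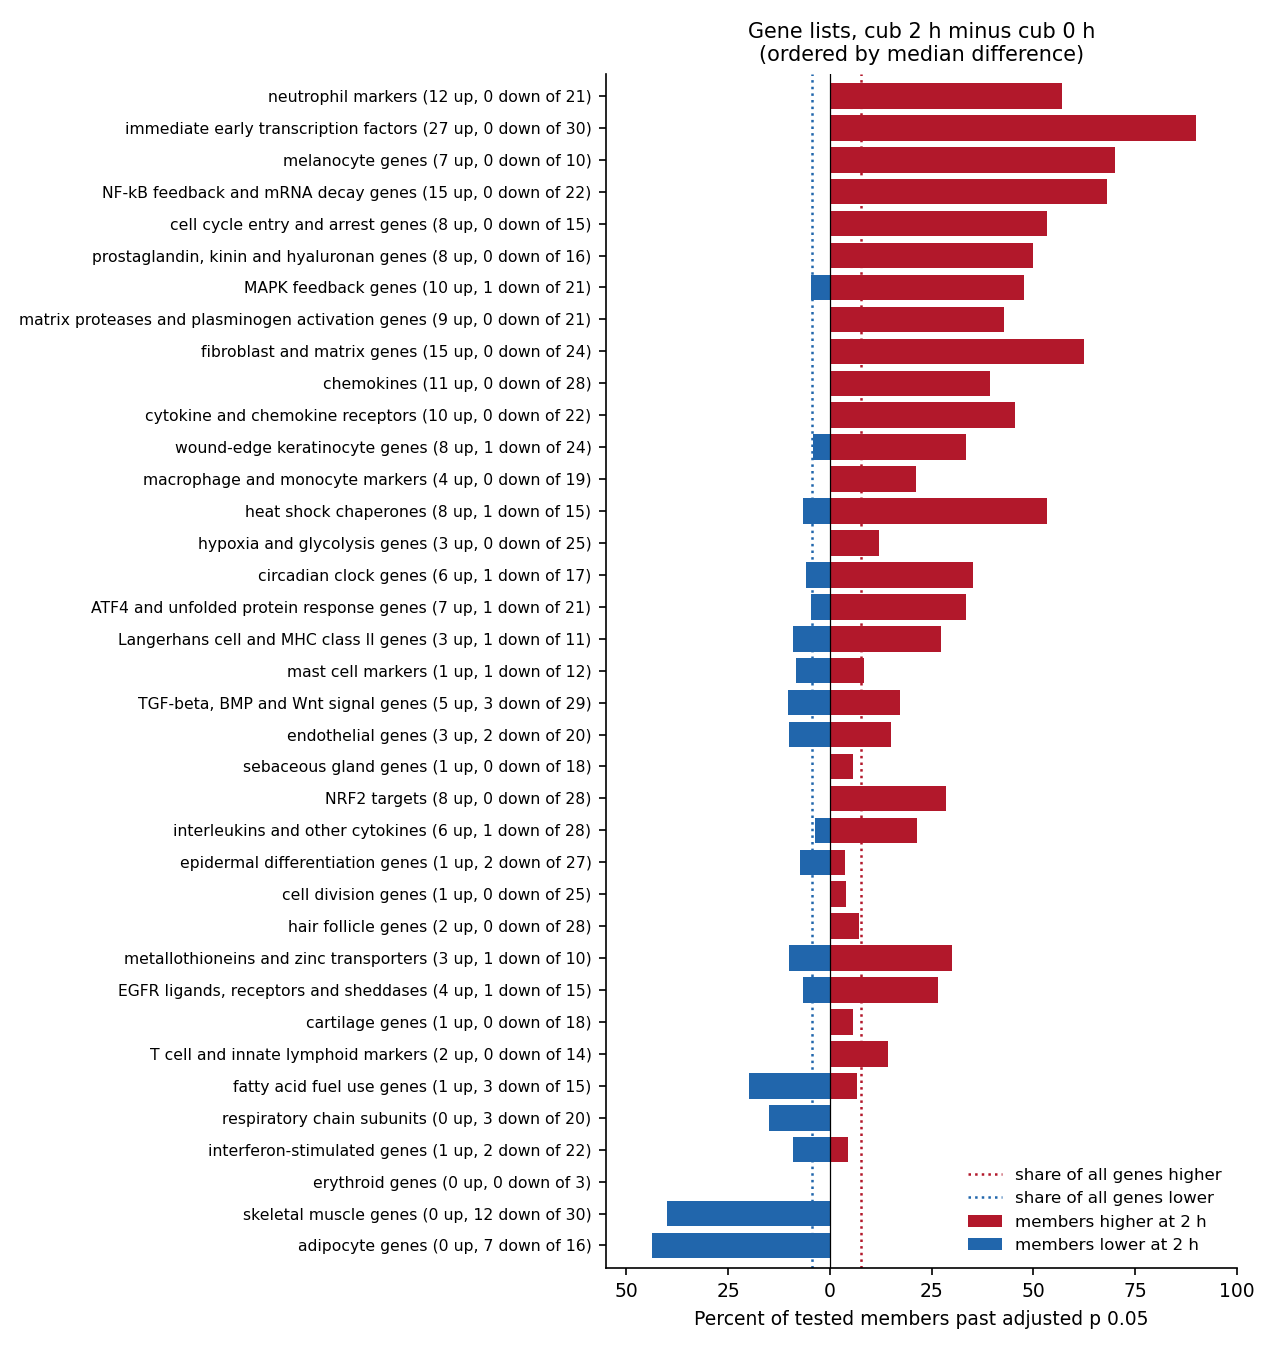
For 37 gene lists, bars give the percent of tested members higher (red, right) or lower (blue, left) in cub 2 h than cub 0 h ears at adjusted p under 0.05, with counts in the labels; dotted lines mark 7.66% and 4.28% of all genes. Immediate early factors reach 27 of 30 higher, while only skeletal muscle and adipocyte lists have long blue bars, 12 of 30 and 7 of 16.

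Pigment cell genes were higher at 2 h. Of 10 melanocyte genes 7 rose and 0 fell (median 0.80). Tyrp1, an enzyme of melanin synthesis, was at 9.41, 8.75 and 9.14 in cub 2 h arrays, against 7.42, 7.30 and 7.53 in cub 0 h arrays, 3.21-fold higher (limma adjusted p = 2.53e-06). Pmel, the fibril protein of melanosomes, was at 8.34, 7.69 and 8.04 in cub 2 h arrays, against 7.0, 6.68 and 6.8 in cub 0 h arrays, 2.29-fold higher. The melanin enzyme Dct rose by 1.05 ± 0.12, Mlana by 0.96 ± 0.17 and the endothelin receptor Ednrb by 0.91. Differences for the lineage factors Mitf (0.12) and Sox10 (0.05) did not pass. The list mean was 7.24 to 7.56 in cub 2 h arrays, 6.62 to 6.71 in cub 0 h arrays, 6.78 to 6.99 in wild-type 2 h arrays and 6.73 to 6.8 in wild-type 0 h arrays. In wild type 0 of the 10 rose or fell (median 0.09). At 15 min, however, Tyrp1 averaged 8.16 in cub and 8.38 in wild type, above its 0 h means of 7.42 and 7.75. Dct, Pmel, Mlana and Tyr at 15 min were likewise above their 0 h means in both genotypes. These 15 min means were not tested.

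Muscle and fat genes were the lists with the most falls. Of 30 skeletal muscle genes 0 rose and 12 fell (median -0.37). The count was 4, 3 and 7 without cub 0 h replicates 1, 2 and 3, and 3, 5 and 3 without cub 2 h replicates 1, 2 and 3. Myh7, the slow myosin heavy chain, was at 6.87, 7.51 and 6.90 in cub 2 h arrays, against 8.34, 8.68 and 7.90 in cub 0 h arrays (difference -1.21 ± 0.27, limma adjusted p = 0.00391). The slow light chain Myl3 was at 6.50, 6.98 and 6.44 in cub 2 h arrays, against 7.60, 7.72 and 7.25 in cub 0 h arrays (difference -0.88 ± 0.15). Pvalb, another muscle list member, fell by 0.62 ± 0.20, a call lost in 10 of 16 alternatives. The abundant muscle genes Acta1 (-0.13) and Ckm (-0.20) did not pass. The list mean was 9.91 to 10.03 in cub 2 h arrays and 10.27 to 10.41 in cub 0 h arrays, against 9.88 to 10.24 in wild-type 2 h arrays and 9.94 to 10.26 in wild-type 0 h arrays.

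Of 16 adipocyte genes 0 rose and 7 fell (median -0.42). Plin1, which coats lipid droplets, was at 7.40, 8.22 and 7.54 in cub 2 h arrays, against 8.15, 9.48 and 8.78 in cub 0 h arrays (difference -1.08 ± 0.23, limma adjusted p = 0.00331). Its groups overlapped, and the second array was the highest of each group. The count was 0 when only the 6 cub arrays were fitted, 2 without cub 0 h replicate 2, and 3 without cub 2 h replicate 1 or 3. The list mean was 9.91 in cub 0 h replicate 2, against 9.04 and 9.40 in the other cub 0 h arrays. Cyp2e1, a cytochrome P450 with the largest fall of all (-1.45 ± 0.33), also had its highest value in the second array of each group, at 5.21, 6.12 and 5.43 in cub 2 h arrays and 6.47, 8.34 and 6.29 in cub 0 h arrays, though its groups did not overlap. Its call was lost with only the 6 cub arrays fitted (adjusted p = 0.103). The part of the amount of fat and muscle in each piece in these results was not tested.

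Among fuel genes, 0 of 20 respiratory chain subunits rose and 3 fell (median -0.11), 1 without any 1 of cub 0 h replicate 1 and cub 2 h replicates 1 and 3. The largest of these was Sdha, a subunit of succinate dehydrogenase (-0.25 ± 0.06). Of 15 fatty acid fuel genes 1 rose and 3 fell (median -0.08): Angptl4, an inhibitor of lipoprotein lipase, rose by 0.69 ± 0.15, and Fabp3, Acadvl and Acadm fell. None fell without cub 0 h replicate 2 or cub 2 h replicate 3, and 1 fell without cub 0 h replicate 1 or cub 2 h replicate 1. Of 3 erythroid genes tested, 0 rose or fell (median -0.27), though 1 fell without cub 0 h replicate 1 or cub 2 h replicate 2. Over all genes tested, 7.66% rose and 4.28% fell.

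**Figure D4:**
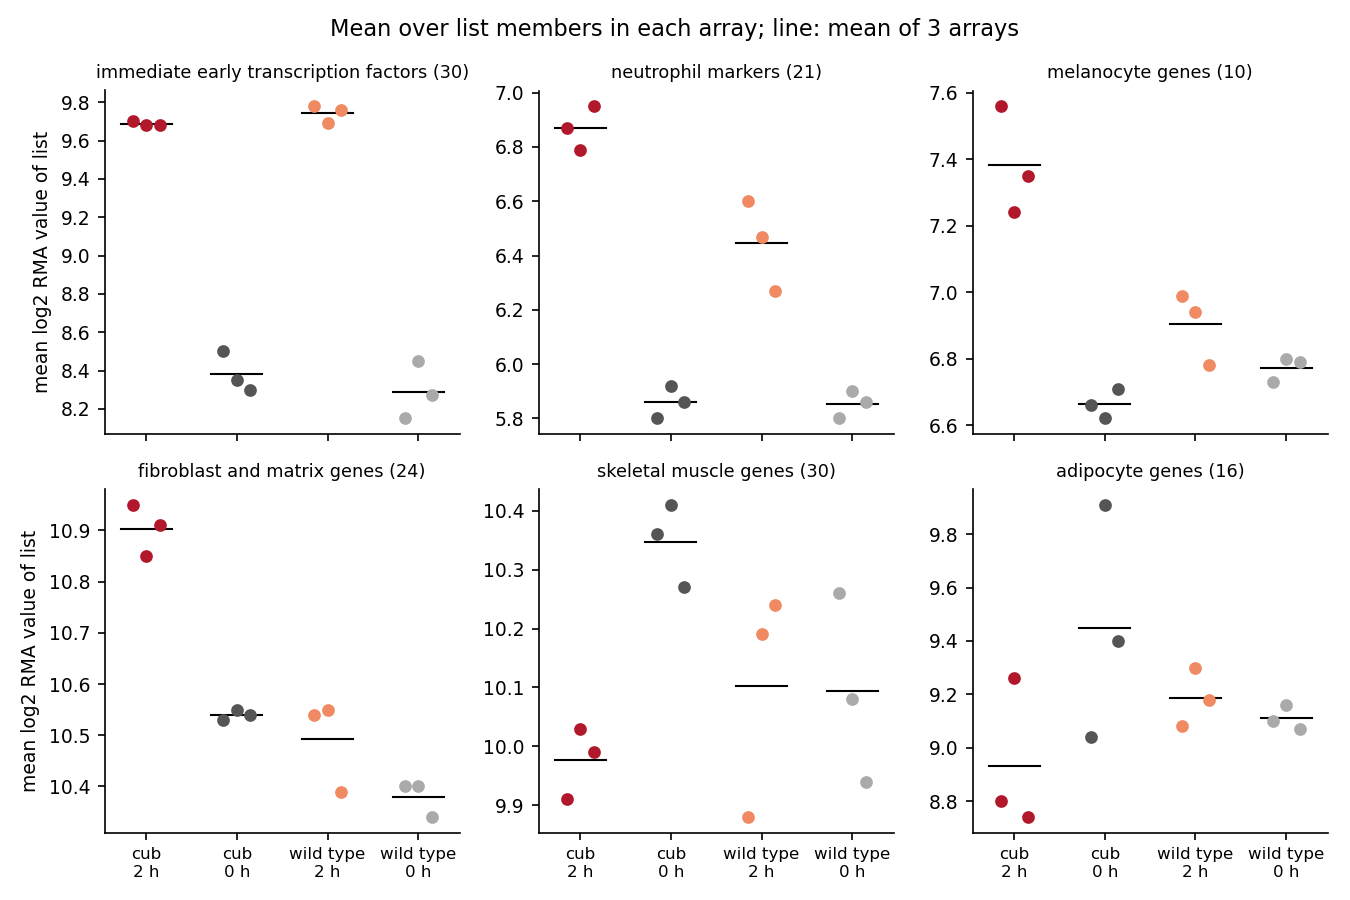
Mean log2 RMA value over the members of 6 lists in each array of cub 2 h, cub 0 h, wild-type 2 h and wild-type 0 h ears, with lines at group means. Immediate early and neutrophil lists stand higher at 2 h in both genotypes, the melanocyte list is highest in cub 2 h arrays (7.24 to 7.56), and cub 0 h replicate 2 is the highest array for adipocyte genes (9.91).

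Among the other large falls, Aqp7, a glycerol channel of fat cells, was at 6.99, 7.60 and 6.91 in cub 2 h arrays, against 7.70, 8.87 and 8.25 in cub 0 h arrays, so its second array was the highest of each group, as for Plin1 (difference -1.11 ± 0.20). Mill1, an MHC class I-like gene, was at 8.11, 8.21 and 8.02 in cub 2 h arrays, against 8.90, 9.36 and 8.93 in cub 0 h arrays (difference -0.95 ± 0.14, limma adjusted p = 5.65e-05). Ccr4, a chemokine receptor of skin-homing T cells, was at 7.88, 7.82 and 7.98 in cub 2 h arrays, against 8.85, 8.90 and 8.70 in cub 0 h arrays (difference -0.92 ± 0.09). Neither gene's groups overlapped. The 15 largest falls were ranked among called genes without array overlap. Those left out for overlap include Cidec (-1.11), Plin1 (-1.08), Pck1 (-0.95) and Retn (-0.95). The remaining genes of the 15 were Rnase6 (-0.84), H2-M5 (-0.83), the muscle list member Myl2 (-0.83), Pcp4 (-0.80), Skint7 (-0.78), F830045P16Rik (-0.78), Mylk4 (-0.88) and Mir205. The Myl2 call was lost without cub 0 h replicate 1 or cub 2 h replicate 3 (highest adjusted p = 0.057).

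Each microRNA gene has 1 value per array here, so the 2 arms of its hairpin cannot be separated. Where the probes of these genes lie was not examined. Of 272 microRNA genes tested, 21 were called, 8 higher (2.94%) and 13 lower (4.78%), beside 7.66% and 4.28% of all genes. Sizes of at least 0.6 were reached by 7 called genes, and sequences of 4 of them are shown because the largest changes and a neighbouring pair are among them, a choice made after their values were seen. Capitals mark the seed, bases 2 to 8, in the RefSeq mature sequences (GRCm38.p6).
mmu-miR-205-5p (chr1:193507503-193507524, minus strand): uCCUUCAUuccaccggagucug
mmu-miR-205-3p (chr1:193507467-193507488, minus strand): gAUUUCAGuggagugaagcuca
mmu-miR-99a-5p (chr16:77598940-77598961, plus strand): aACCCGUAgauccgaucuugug
mmu-let-7c-5p (chr16:77599672-77599693, plus strand): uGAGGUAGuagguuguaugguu
mmu-miR-377-3p (chr12:109740553-109740574, plus strand): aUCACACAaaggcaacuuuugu

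These 5 seeds differ from one another, so none of the printed microRNAs form a seed family. Mir205, an epidermal microRNA gene, was at 5.62, 6.10 and 5.75 in cub 2 h arrays, against 6.66, 6.81 and 6.34 in cub 0 h arrays (difference -0.78 ± 0.14, limma adjusted p = 0.000749). Mir99a and Mirlet7c-1, which neighbour each other on chromosome 16, fell by 0.64 ± 0.10 and 0.61 ± 0.11. Mir365-1 and Mir181b-1 fell by 0.71 ± 0.13 and 0.69 ± 0.10. Mirlet7c-1 averaged 4.17 in cub 2 h and 4.77 in cub 0 h arrays. Mir365-1 averaged 5.09 and 5.79 in these groups, and Mir181b-1 4.79 and 5.48. The highest group means of Mirlet7c-1, Mir365-1, Mir181b-1 and Mir377 were under the floor of 6 on dim genes, while Mir205, Mir99a and Mir18 passed it. Of the 272 microRNA genes tested, only 67 passed this floor. Mir377 was at 5.28, 4.75 and 4.60 in cub 2 h arrays, against 3.95, 4.01 and 4.03 in cub 0 h arrays (difference 0.88 ± 0.11, limma adjusted p = 6.47e-06), near the low end of the array scale. Mir18 rose by 0.67 ± 0.17, a call lost without cub 0 h replicate 3 or cub 2 h replicate 3.

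The wild-type wounding change called 1590 genes (7.97%), 793 higher (3.98%) and 797 lower (4.0%). Its group means came from other arrays than those of cub. Both tests used the same estimate of the spread, so their calls are not independent. Of the genes that rose in cub, 591 also rose in wild type, which is 38.7% of the cub rises and 74.5% of the wild-type rises. Of the falls, 261 were in both, or 30.6% of the cub falls and 32.7% of the wild-type falls, and 7 genes were called in opposite directions. All 15 of the largest cub rises were also called higher in wild type. Of the 15 largest falls without array overlap, 5 were also called lower. Il6 rose by 4.50 in cub and 4.51 in wild type, and Fos by 2.73 and 3.08. Il1b rose by 3.99 in cub and 3.15 in wild type, a difference of 0.84 that did not pass its test (adjusted p = 0.393). A gene called in 1 genotype alone is not thereby shown to differ.

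The difference of the cub and wild-type changes was tested directly, and 26 genes passed (0.13%), 21 with a higher change in cub (0.105%) and 5 with a lower one (0.0251%). At an unadjusted p under 0.05 there were 2029. Of the 15 largest rises 0 passed this test, and of the 15 largest falls without array overlap 1 did, Mill1 (-1.11 ± 0.19, adjusted p = 0.0268). Mill1 averaged 8.11 in cub 2 h and 9.06 in cub 0 h arrays, against 8.0 in wild-type 2 h and 7.84 in wild-type 0 h arrays. Of these groups, only the cub 0 h arrays were high. The pigment genes Tyrp1, Dct and Tyr passed, with differences of 1.35 ± 0.27, 1.08 ± 0.17 and 0.77 ± 0.14. Arc, a neuronal immediate early gene, was at 8.80, 8.70 and 8.60 in cub 2 h arrays, against 6.76, 6.52 and 6.76 in cub 0 h arrays, and its change exceeded that of wild type by 1.24 ± 0.21 (adjusted p = 0.0268). Cthrc1, a secreted collagen triple helix protein, had a difference of 1.08 ± 0.17 (adjusted p = 0.0214), and its change was 0.98 in cub and -0.10 in wild type. Pdk4, a kinase that limits pyruvate oxidation, was at 9.60, 10.25 and 9.5 in cub 2 h arrays and 9.83, 10.67 and 9.66 in cub 0 h arrays, against 9.5, 9.25 and 9.79 in wild-type 2 h arrays and 7.29, 7.37 and 7.41 in wild-type 0 h arrays. Of these 4 groups, only the wild-type 0 h arrays were low (difference of changes -2.43 ± 0.32, adjusted p = 0.00359). This count was unstable: it was 1 without cub 0 h replicate 2 or wild-type 0 h replicate 2, 2 without cub 2 h replicate 1 or wild-type 2 h replicate 2, and 45 without cub 2 h replicate 2. Without cub 0 h replicates 1 and 3 in turn it was 14 and 10, without cub 2 h replicate 3 it was 6, and without wild-type 0 h replicate 3 and wild-type 2 h replicates 1 and 3 it was 4, 5 and 4.

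**Figure D5:**
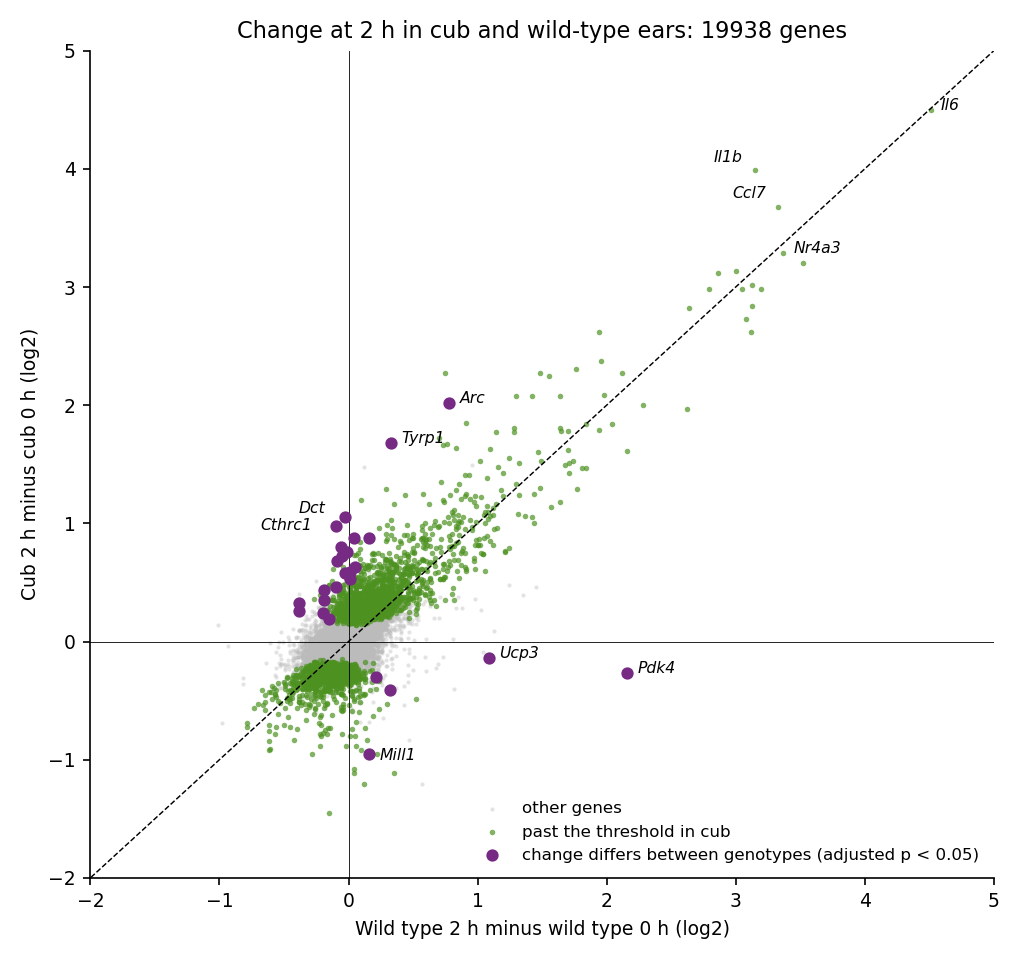
Each point is 1 of 19938 genes, with the wild-type change at 2 h on the x axis and the cub change at 2 h on the y axis (both log2); the dashed line marks equal changes. Il6 lies on the line, at 4.50 in cub and 4.51 in wild type, and the 26 purple points, with Arc, Tyrp1 and Pdk4 among them, passed the test of a different change.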

How the data were processed

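The design text names the array as Affymetrix Mouse Gene 1.0 ST. The authors deposited log2 values, and the submitters' processing notes name RMA and Affymetrix Expression Console, version 1.1. The level of summarization, the annotation and the build are not given in the sources used here. Of 35556 rows, 21789 carried 1 gene symbol. For a gene with several rows, the row with the highest mean over all arrays was used, leaving 19938 genes.

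In limma 3.58.1 (R 4.3.3), 1 mean per group was fitted over all 23 arrays with 15 residual degrees of freedom. The contrasts were cub 2 h minus cub 0 h, the same in wild type, and their difference, with two-sided moderated tests and Benjamini-Hochberg adjustment over all genes. The script was tested on simulated data. The number of arrays limits precision. Each p-value sets a difference against the spread within groups, estimated from all 23 arrays and moderated over genes. Array medians lay between 6.37 and 6.46, and no pair of arrays correlated above 0.9985.

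The members and the 37 gene lists were chosen with earlier results of these data known, so list counts are descriptions. Of 788 listed genes, 732 were tested and 56 were not analysed here. Genes were named by rule: the 15 largest rises and falls without array overlap, up to 4 called members per list by size, fixed genes and tissue markers, and the 10 largest differences between genotypes each way. Other list members, among them those that did not pass, were named after their values were seen. Alternatives covered scaling, a floor of 6 on dim genes, rows, arrays fitted, moderation, array weights, q values, a replicate block and leaving out each array. R/maanova, named in the design text, was not run.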

Additional observations from a re-analysis of the deposited data

Results flagged for a closer look

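The change at 2 h differed between the genotypes, by the test of the difference itself, for 26 genes, of which the 10 with the largest positive and all 5 with a negative difference are named here. The differences of cub change minus wild-type change were positive for Tyrp1 (1.35), Arc (1.24), Dct (1.08), Cthrc1 (1.08), C1qtnf3 (0.86), Mir377 (0.84), C1qtnf6 (0.77), Tyr (0.77), Galnt6 (0.76) and Cry1 (0.72). They were negative for Pdk4 (-2.43), Ucp3 (-1.23), Mill1 (-1.11), H2-Q5 (-0.73) and Shisa7 (-0.50). Each of the 15 lost its call in at least 1 of the alternatives run, 22 for each gene except Mir377 and Tyr, which the filter on dim genes left out and which had 21. Pdk4 lost it only without moderation (adjusted p = 0.0565), and Tyrp1 lost it in 16 of the 22.

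Rows of the table outside the gene tests also differed between cub 2 h and cub 0 h ears when every row was tested. Of 12146 rows with no symbol, 349 were called, 226 higher and 123 lower. Of 1621 rows with several symbols, 104 were called, 70 higher and 34 lower. Both shares were smaller than the 11.9% of genes called in the gene tests, so neither set stood out by its count. The adjustment over every row differs from that over genes, so this comparison is rough.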

How the results depend on the processing

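The count of 2381 genes was 4112 with array weights, 2100 higher and 2012 lower, and lay between 1716 and 2007 when 1 array was left out. Quantile normalization gave 2898, of which 48.5% were higher, against 64.2% in the fit as reported. The 26 genes of the genotype difference became 173 with array weights, 10 with only the groups compared, 2 with every row tested, 1 without moderation, and 1 to 45 when 1 array was left out. Of 148 named genes called in the cub comparison, 124 were called in every alternative that tested them, 24 were lost in at least 1, and 0 reversed. There were 16 alternatives, or 15 for the 4 genes that the filter on dim genes left out (Mir377, Skint7, Tyr and Krt86). The cause of these shifts was not tested.

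The labels number the replicates alike in each group, but same-numbered cub 2 h and cub 0 h arrays had correlations of deviations of 0.0383, -0.0793 and 0.0423, and same-numbered wild-type arrays -0.149, -0.238 and -0.26. Across genotypes they were 0.181, 0.258 and -0.0207 at 2 h, and 0.0674, 0.176 and 0.211 at 0 h. Since not every pair was above 0.1, the numbers were not taken to pair the samples. With a replicate block, 2278 genes were called in the cub comparison and 4 in the genotype difference.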
